A study of Mus musculus with 8 samples.

Results

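The 33 genes described here are stratified squamous epithelium and keratinocyte genes, a list of 7 basal layer genes, 16 suprabasal genes and 10 cornified layer genes. They were listed by symbol with results of these same arrays known, and so count as selected on the measured difference between SWCNT and PF68 lungs on day 1. Of the 33, 32 had a probe set naming no other gene, among 18191 genes with such a probe set, and Dsg3 is not analysed here. Where a gene had several probe sets, the one with the highest average signal was read. A gene was tested where that probe set reached the array median on at least 2 arrays, which 26 of the 32 did, among 13815 genes tested. Krt14, Dsc3, Lypd3, Rptn, Ivl and Sprr1b were too dim for the test and are described by their values.

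The study compared lungs of male ICR mice, an outbred strain, aged 5 to 6 weeks, after instillation of single-walled carbon nanotubes (SWCNT) or of their solvent. Under pentobarbital, the trachea was reached through a cut in the skin of the ventral neck. Control mice (PF68) received the surfactant Pluronic F-68 alone, and treated mice received 0.5 mg of SWCNT in 50 µl of 0.1% Pluronic F-68, so every group shared anaesthetic, incision and surfactant. Lobe 1 of the right lung was taken on day 1, which the labels call the acute phase, or on day 7, the sub-chronic phase. Total RNA was hybridized to Affymetrix mouse arrays, with 2 arrays for each of the 4 groups. The labels call these biological replicates without naming animals, so p-values measure the spread between these arrays.

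A stratified squamous epithelium, such as skin or the lining of mouth and oesophagus, renews from a basal layer. Basal cells hold on to the basement membrane, make the keratins 5 and 14 and depend on the transcription factor p63, the product of Trp63. As they move up they switch to other keratin pairs, keratins 1 and 10 in skin and keratins 4 and 13 in internal linings, and strengthen their desmosomes. The outermost cells build a cornified envelope in which transglutaminases cross-link loricrin, involucrin, small proline-rich and late cornified envelope proteins. In the lung, alveoli hold no such epithelium, while the largest airways keep basal cells with keratin 5, keratin 14 and p63.

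Promoter sequences are shown for the members whose signals differed most between groups or that stand for their layer. RefSeq sequences of assembly GRCm38.p6, from 250 bases before to 50 bases after the start of the gene, matched 21 of the 33 members. Capitals mark TGACTCA or its reverse complement (the AP-1 site bound by Fos and Jun proteins), TATAAA, the usual core of the TATA element, and the p53 family decamer, each searched on both strands. Krtdap, Dmkn and Sbsn neighbour one another on chromosome 7 and are shown together, Sprr1a stands for the cornified layer, Mt4 and Krt13 for the suprabasal layer and Krt5 for the basal layer. Their windows are chr7:30787655-30787954 for Krtdap, chr7:30763506-30763805 for Dmkn and chr7:30751221-30751520 for Sbsn, all on the plus strand. Sprr1a lies at chr3:92485832-92486131 on the minus strand, Mt4 at chr8:94136954-94137253 on the plus strand, Krt13 at chr11:100121517-100121816 and Krt5 at chr15:101712856-101713155, both on the minus strand. Each is written 5′ to 3′ along its gene.
Krtdap: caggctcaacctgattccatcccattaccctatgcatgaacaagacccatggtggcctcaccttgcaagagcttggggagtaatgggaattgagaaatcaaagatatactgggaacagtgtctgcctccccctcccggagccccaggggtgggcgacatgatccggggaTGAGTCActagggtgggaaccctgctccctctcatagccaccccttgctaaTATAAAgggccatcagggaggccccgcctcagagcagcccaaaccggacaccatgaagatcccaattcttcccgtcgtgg
Dmkn: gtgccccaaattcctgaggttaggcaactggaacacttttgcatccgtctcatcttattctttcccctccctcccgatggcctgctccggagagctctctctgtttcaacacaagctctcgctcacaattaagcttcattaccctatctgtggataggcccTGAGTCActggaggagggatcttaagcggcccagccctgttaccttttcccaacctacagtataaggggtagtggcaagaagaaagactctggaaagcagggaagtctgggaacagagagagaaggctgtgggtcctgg
Sbsn: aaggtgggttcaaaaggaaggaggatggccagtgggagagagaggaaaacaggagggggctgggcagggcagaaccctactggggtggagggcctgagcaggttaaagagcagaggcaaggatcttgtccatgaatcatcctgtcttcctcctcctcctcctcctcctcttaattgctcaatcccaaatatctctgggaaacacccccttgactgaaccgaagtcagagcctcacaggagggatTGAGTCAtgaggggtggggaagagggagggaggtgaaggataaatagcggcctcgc
Sprr1a: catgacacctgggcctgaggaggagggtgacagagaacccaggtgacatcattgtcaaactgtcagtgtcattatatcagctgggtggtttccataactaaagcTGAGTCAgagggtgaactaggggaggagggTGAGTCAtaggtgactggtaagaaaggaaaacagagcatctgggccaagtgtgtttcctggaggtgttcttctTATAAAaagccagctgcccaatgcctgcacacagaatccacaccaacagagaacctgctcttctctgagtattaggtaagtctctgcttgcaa
Mt4: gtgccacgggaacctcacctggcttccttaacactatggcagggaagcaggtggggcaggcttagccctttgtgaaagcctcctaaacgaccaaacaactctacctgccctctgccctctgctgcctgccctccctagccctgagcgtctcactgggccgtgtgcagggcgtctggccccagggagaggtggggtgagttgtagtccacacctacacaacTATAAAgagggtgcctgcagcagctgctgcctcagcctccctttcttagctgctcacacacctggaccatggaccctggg
Krt13: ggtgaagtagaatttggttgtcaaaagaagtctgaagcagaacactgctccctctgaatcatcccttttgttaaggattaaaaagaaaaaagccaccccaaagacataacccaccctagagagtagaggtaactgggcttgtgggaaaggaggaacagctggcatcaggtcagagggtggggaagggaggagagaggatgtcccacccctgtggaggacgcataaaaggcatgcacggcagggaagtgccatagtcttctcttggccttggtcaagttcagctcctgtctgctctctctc
Krt5: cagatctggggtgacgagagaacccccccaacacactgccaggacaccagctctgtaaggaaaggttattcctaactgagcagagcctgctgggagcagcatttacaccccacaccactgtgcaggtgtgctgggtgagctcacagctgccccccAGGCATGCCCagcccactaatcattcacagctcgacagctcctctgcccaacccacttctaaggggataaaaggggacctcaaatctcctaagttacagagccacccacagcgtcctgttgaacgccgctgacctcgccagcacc

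TGACTCA was present in 7 of the 21 promoters, those of Dmkn, Fam25c, Ivl, Krtdap, Lor, Sbsn and Sprr1a, and in 5.17% of all 27018 promoters of the same length. In Krtdap it began 81 bases before the start, in Dmkn 89, in Sbsn 6 and in Lor 48. Sprr1a held it at 146 and again at 116 bases before the start. TATAAA was found in 11 of the 21, and in 14.2% of all promoters. The p53 family decamer, the kind of motif that p63 also binds, was in Krt5, where it began 95 bases before the start, and in Fam25c, against 8.34% of all promoters. No match of one motif overlapped a match of another. The Krt13 window held none of these letters, and a match describes the sequence without showing a site in use.

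In the SWCNT lungs of day 1, a part of the suprabasal and cornified genes stood far above the other 6 arrays, while the basal genes did not. Krt15 was the only basal gene highest on both SWCNT arrays of day 1, by a smaller margin. Because the members were listed with this contrast known, its values are given as a description. Of 26 members tested, 10 passed an adjusted p of 0.05 in limma's moderated test as higher and 0 as lower, where 0.934% of all genes tested were called higher and 1.24% lower. Leaving out the first or second PF68 array of day 1 left 3 or 4 calls, and leaving out the first or second SWCNT array of that day left 3 or 2. The 10 genes called with all arrays were Krt4, Krt13, Krtdap, Sbsn, Dmkn, Fam25c, Serpinb12, Mt4, Crct1 and Lce3f, 8 suprabasal and 2 cornified genes. Of these, 7 reached the array median on the SWCNT arrays of day 1 alone and so entered the test only through the group where they are high, and the other 3 were Sbsn, Dmkn and Fam25c. A filter at 4 arrays left 3 calls. The median SWCNT minus PF68 difference was 0.96 log2 units over the 32 members and -0.02 over all genes tested. Both SWCNT arrays lay above both PF68 arrays for 21 of the 32 members, where 24.6% of all genes tested did so. A difference of at least 1, with dim values raised to the array median, was seen for 12 members and for 1.19% of all genes tested. In a piece of tissue, more cells of a type and more RNA per cell cannot be told apart. All values and differences are on the scale of the deposited data, read as log2, on which the array median is -0.628. Below that median the signal is dim, so differences are also given with dim values raised to it, called here counted from the array median.

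**Figure D1:**
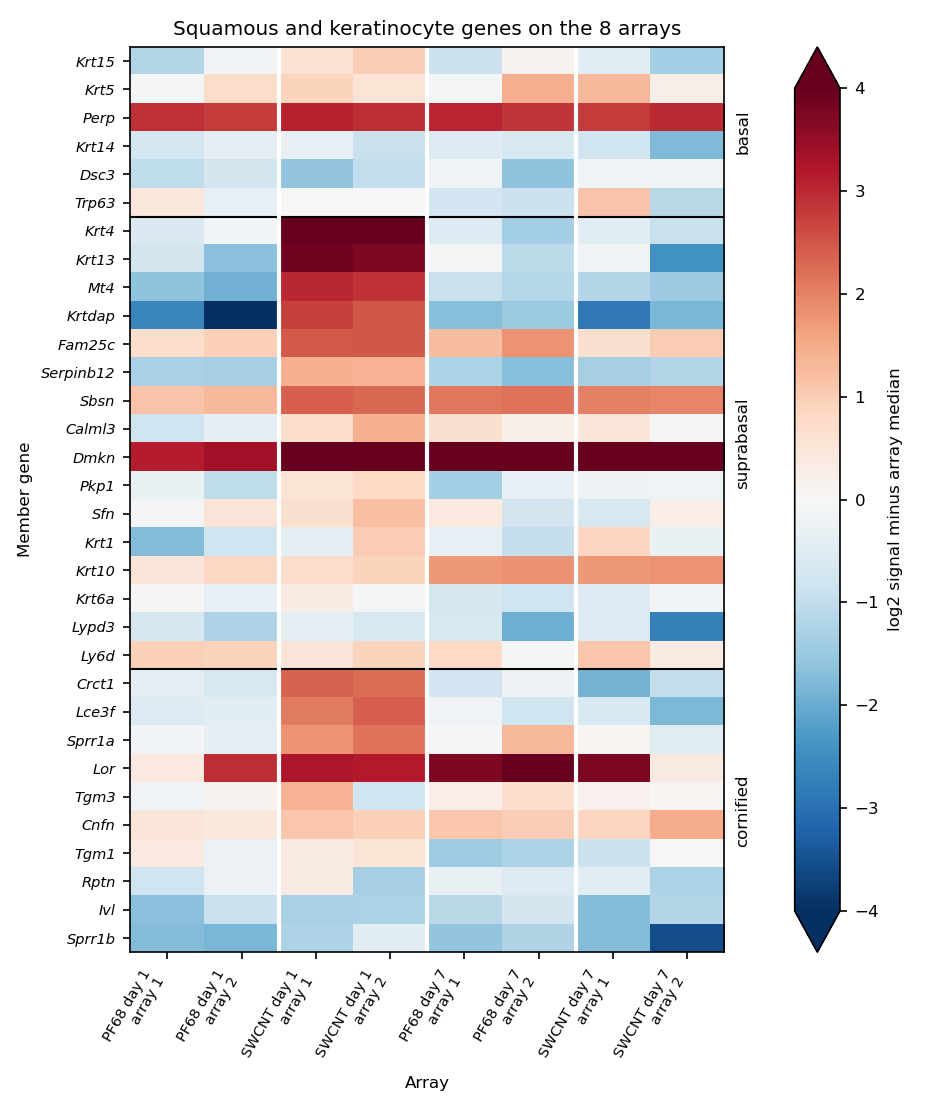
Signal of the 32 members (rows, by layer, in order of their day 1 difference counted from the array median) on each of the 8 arrays (columns), coloured by log2 signal minus the array median of -0.628; the colour scale saturates at 4 units on either side. The 2 SWCNT day 1 columns are the reddest for Krt4, Krt13, Mt4 and Krtdap and for Crct1, Lce3f and Sprr1a. Among the basal rows only Krt15 is highest in both of these columns, at signals of -0.05 and 0.35.

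The same day 1 values can be put as counts of members at or above the array median on each array, a description and no further support. Of all 18191 genes, 66% to 67.5% reached it on every array. Of 32 members, 25 and 24 reached it on the SWCNT arrays of day 1, against 11 and 11 on the PF68 arrays of day 1, 11 and 12 on the PF68 arrays of day 7, and 14 and 12 on the SWCNT arrays of day 7. Among the 16 suprabasal genes the counts were 14 and 14 on the SWCNT arrays of day 1, and 5 to 7 on the others. Cornified genes gave 8 and 6 of 10 on those arrays and 3 or 4 on the others. Of the 6 basal genes measured, 3 and 4 reached the median there and 1 to 3 elsewhere. The highest of the 8 arrays was one of the SWCNT day 1 pair for 12 and 11 members respectively, and never a PF68 array of day 1.

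Basal layer genes were the flat part of the list. None of the 4 tested was called on day 1, and their median difference over 6 genes, counted from the array median, was 0.07. Krt15, a keratin of basal cells, read -1.80 and -0.74 on the PF68 arrays of day 1, -0.05 and 0.35 on the SWCNT arrays of day 1, -1.50 and -0.48 with PF68 on day 7 and -1.04 and -2.00 with SWCNT on day 7. It was the only basal gene tested whose 2 SWCNT day 1 arrays lay above all other arrays, and its day 1 difference was 1.42 ± 0.54 (SE, 2 arrays against 2), or 0.77 counted from the array median and 0.89 without the first PF68 array. Krt5, the defining basal keratin, gave -0.69 and 0.11 with PF68 on day 1, 0.27 and -0.09 with SWCNT on day 1, -0.68 and 0.82 with PF68 on day 7 and 0.67 and -0.40 with SWCNT on day 7. These pairs overlap on both days. Trp63 read -0.18 and -0.97 in PF68 lungs of day 1, -0.64 and -0.62 in SWCNT lungs of day 1, -1.40 and -1.48 in PF68 lungs of day 7, and 0.52 and -1.75 in SWCNT lungs of day 7. No group of Trp63 stood apart, and 1 SWCNT array of day 7 was its highest. Perp, a membrane protein needed for desmosomes, lay between 2.16 and 2.46 on all 8 arrays. Krt14, the partner of Krt5, stayed below the array median on every array, and so did the desmosomal cadherin Dsc3. The defining markers of basal cells, Krt5, Krt14 and Trp63, were thus dim or overlapping between the groups of day 1, and the basal part of the list's name is not borne out by them. Krt15 went the other way without being called. Further probe sets of Krt14 and Trp63 stayed below the array median on every array. Those of Krt14 differed by 1.15 and 2.09 on day 1, or 0 counted from that median.

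Most of the day 1 calls were suprabasal genes, 8 of 15 tested, with a median difference of 1.03 over 16 genes counted from the array median, and the layers were not tested against each other. Krt4, the type II keratin of internal linings, gave -1.21 and -0.74 on the PF68 arrays of day 1, 3.71 and 4.14 on the SWCNT arrays of day 1, -1.15 and -1.98 with PF68 on day 7 and -1.05 and -1.53 with SWCNT on day 7. Krt13, its type I partner, gave -1.36 and -2.31, then 3.25 and 3.10, then -0.68 and -1.68, and finally -0.76 and -3.04 in the same order of groups. For both keratins the SWCNT day 1 arrays were bright and close together while the other 6 lay below the array median. The day 1 difference was 4.90 ± 0.35 for Krt4 and 5.00 ± 0.79 for Krt13. Since the PF68 arrays were dim, the differences counted from the array median, 4.56 and 3.80, are lower bounds for these probe sets only. They are at least 23.5-fold and 13.9-fold if the base is 2. Further probe sets gave smaller differences counted from that median, 3.06 for Krt4 and 1.14 and 0.04 for Krt13.

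Mt4, a metallothionein of stratified squamous epithelia, read -2.23 and -2.56 with PF68 on day 1, 2.38 and 2.26 with SWCNT on day 1, -1.52 and -1.76 with PF68 on day 7 and -1.80 and -2.09 with SWCNT on day 7. Krtdap, a small secreted protein of differentiating keratinocytes, read -3.27 and -5.88, then 2.10 and 1.86, then -2.33 and -2.11, then -3.50 and -2.44. Again only the SWCNT arrays of day 1 rose above the array median. The Krtdap difference of 6.55 ± 0.84 rests on PF68 values far below that median, -5.88 being the lowest value of any array. Counted from the median it was at least 2.60, and the Mt4 difference of 4.72 ± 0.18 was at least 2.95.

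Krtdap, Dmkn and Sbsn, which lie side by side on chromosome 7, all passed the day 1 test, but the last 2 had another pattern, seen after their values were known. Dmkn, which encodes the secreted protein dermokine, read 2.52 and 2.74 with PF68 on day 1, 3.64 and 3.60 with SWCNT on day 1, 3.94 and 3.92 with PF68 on day 7 and 3.73 and 3.69 with SWCNT on day 7. Sbsn, which encodes suprabasin, read 0.52 and 0.67, then 1.77 and 1.68, then 1.47 and 1.53, then 1.37 and 1.31. On these probe sets the PF68 arrays of day 1 were the low ones and the other 3 groups lay close together. A further Sbsn probe set, at or above the array median on all 8 arrays, did not repeat this, with 0.39 and 0.43, then 1.75 and 1.57, then 0.93 and 0.68, then 1.37 and 0.99, and its day 7 difference was 0.37 where the chosen one gave -0.16. Their day 1 differences were 0.99 ± 0.12 and 1.13 ± 0.11.

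The remaining suprabasal genes divided. Serpinb12, an intracellular serine protease inhibitor, was higher on day 1 by 2.72 ± 0.17 (1.40 counted from the median) and Fam25c by 1.62 ± 0.23. Calml3, a calmodulin-like protein of epithelia, differed by 1.67 ± 0.32, Krt1 by 1.58 ± 0.63 and the desmosomal plaque protein Pkp1 by 1.30 ± 0.40, and none of the 3 passed the test. Krt6a, a keratin of wounded and hyperproliferative epidermis, differed by 0.27, and Krt10, the partner of Krt1 in skin, by 0.15 ± 0.15. Sfn, the 14-3-3 protein stratifin, gave 0.71, Ly6d gave -0.24, and Lypd3 stayed below the array median on every array. The skin pair Krt1 and Krt10 was thus not called where the internal pair Krt4 and Krt13 was, and the difference between the pairs was not tested.

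**Figure D2:**
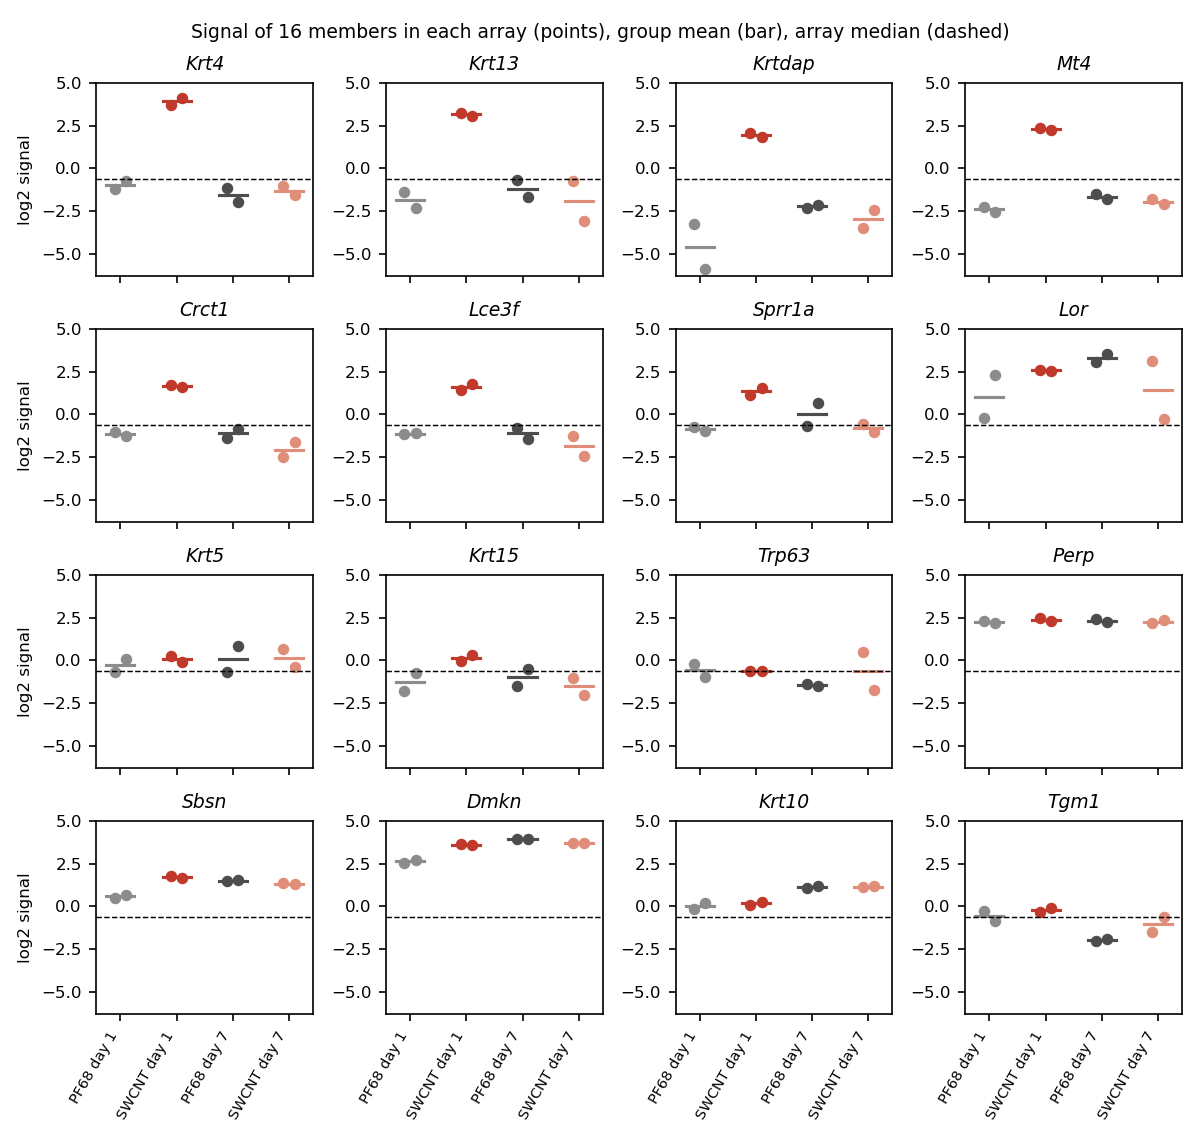
Log2 signal of 16 members on each array (points), with the mean of the 2 arrays of a group (bar) and the array median of -0.628 (dashed line); grey marks PF68 and red SWCNT, for day 1 and day 7. Krt4, Krt13, Krtdap and Mt4 exceed the dashed line only with SWCNT on day 1, Perp lies between 2.16 and 2.46, and Krt10 is higher on the 4 arrays of day 7.

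Cornified layer genes were mixed, with 2 of 7 tested called higher on day 1 and a median difference of 0.76 over 10 genes, or 0.60 counted from the array median. That median was 1.53 over the genes past the filter and 1.87 with the filter applied before the choice of probe set, a setting added after seeing the data in which the suprabasal median was 1.58. Crct1, a cysteine-rich gene of the epidermal differentiation complex, read -1.02 and -1.26 with PF68 on day 1, 1.72 and 1.62 with SWCNT on day 1, -1.39 and -0.83 with PF68 on day 7 and -2.51 and -1.59 with SWCNT on day 7. Lce3f, a late cornified envelope gene, read -1.17 and -1.10, then 1.45 and 1.76, then -0.77 and -1.41, then -1.23 and -2.44. Both were bright on the SWCNT arrays of day 1 alone, by 2.81 ± 0.34 and 2.74 ± 0.42, or 2.30 and 2.23 counted from the array median. Sprr1a, a small proline-rich envelope precursor, read -0.75 and -0.97, then 1.16 and 1.53, then -0.68 and 0.70, then -0.55 and -1.05. Its day 1 difference of 2.21 ± 0.46 was not called, and 1 PF68 array of day 7 was raised as well.

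For Lor, Rptn and Tgm3, the probe sets of the gene disagreed. Lor encodes loricrin, the main protein of the skin's cornified envelope, and its brightest probe set read -0.22 and 2.32 with PF68 on day 1, 2.61 and 2.54 with SWCNT on day 1, 3.10 and 3.55 with PF68 on day 7 and 3.13 and -0.28 with SWCNT on day 7. It was low on 1 array of each of 2 different groups, and its day 1 difference of 1.53 ± 1.26 became 0.26 without the first PF68 array of day 1 and 2.80 without the second. A further Lor probe set gave -2.63 and -0.84, then 2.69 and 2.90, then -2.36 and -1.81, then -2.69 and -3.28, the pattern of Krt4, with a difference of 4.53 (3.42 counted from the median). The remaining Lor probe set differed by 0.05. Repetin, the product of Rptn, is an envelope precursor, and its brightest probe set differed by 0.02. Another Rptn probe set read -2.43 and -1.57, then 1.24 and 1.12, then -2.11 and -2.76, then -1.80 and -2.90, a difference of 3.18. These alternatives were picked out after their values were seen. Of the 12 members with more than 1 probe set, 3 had at least 1 whose day 1 sign was unlike that of the chosen one. The other Krt4 probe set differed by 3.06 counted from the median, and those of Krt13 by 1.14 and 0.04.

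Involucrin (Ivl) and Sprr1b stayed below the array median on all arrays. Cornifelin (Cnfn) differed by 0.57 ± 0.22 on day 1 and Tgm1, a transglutaminase, by 0.36, and neither was called. Tgm3, another transglutaminase, was not called either, its chosen probe set reading 0.76 and -1.42 on the SWCNT arrays of day 1 against -0.76 and -0.50 with PF68. Its other probe set read 0.63 and 0.66 with SWCNT and -1.32 and -0.74 with PF68, a difference of 1.68.

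**Figure D3:**
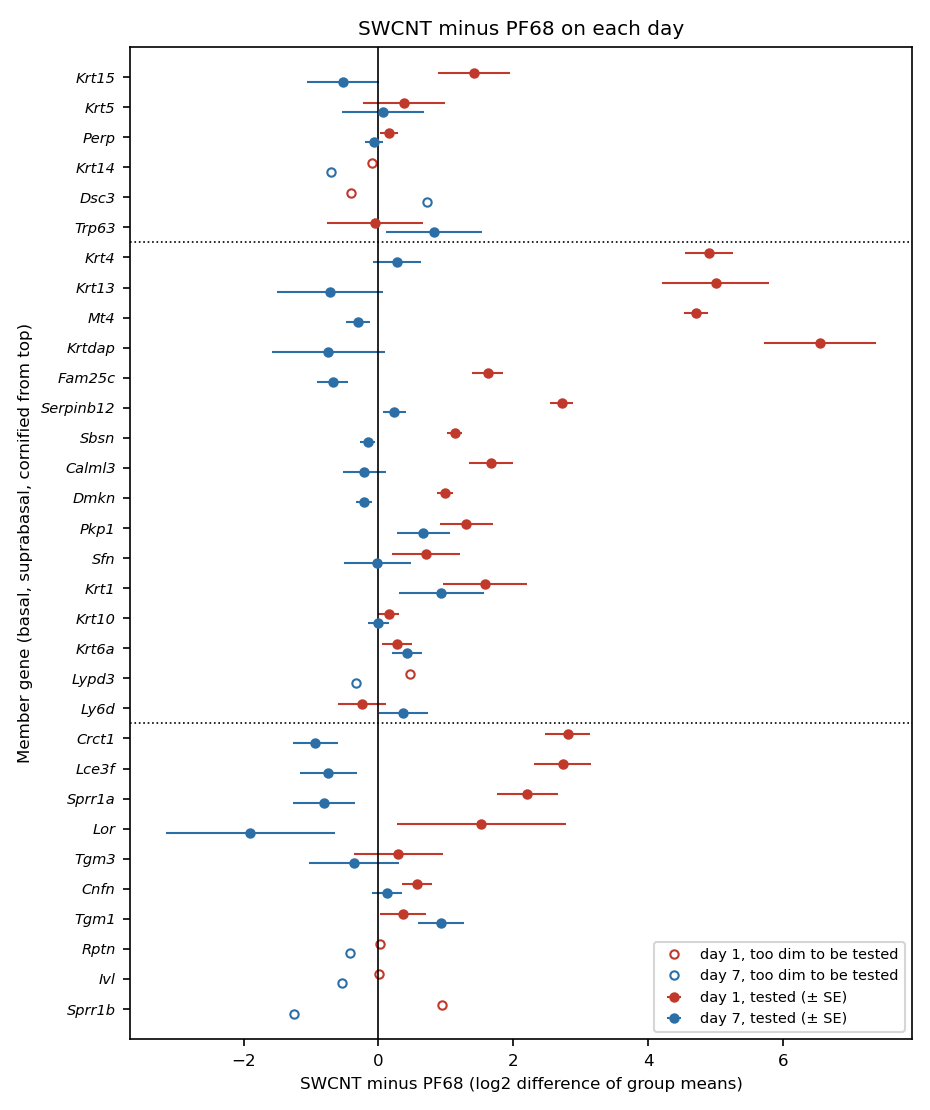
SWCNT minus PF68 difference in log2 signal for each of the 32 members on day 1 (red) and day 7 (blue); filled points were tested and carry ± 1 SE from limma's moderated variance, and open points were too dim to be tested. On day 1 Krt4, Krt13, Mt4 and Krtdap lie beyond 4 units, and on day 7 all points lie between -2 and 1.

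Members were listed with earlier results of these data known, and the comparison on day 7 is the one that choice leaned on least. No member passed it. Of 26 tested, 0 were called in either direction at an adjusted p of 0.05 with limma, where 2.29% of all genes tested were called, 1.48% as higher and 0.818% as lower. Of these 26, 9 lay below the array median on all 4 arrays of day 7 and were tested through their day 1 values, so they could show no difference counted from that median. Of the 17 with at least 1 array of day 7 at the median, 0 were called. At an unadjusted p of 0.05, 3 members passed, among 23.2% of all genes tested. Fam25c was 0.68 ± 0.23 lower (limma, adjusted p = 0.159), Crct1 0.94 ± 0.34 lower (adjusted p = 0.176) and Tgm1 0.93 ± 0.34 higher (adjusted p = 0.184). Counted from the array median, the Crct1 difference was 0 and that of Tgm1 0.011, since both were dim on day 7. The median difference over the 32 members was -0.21, with 0.02 over all genes tested, and it was -0.092 without the second SWCNT array of day 7. Counted from the array median it was 0 in the basal, the suprabasal and the cornified layer. Both SWCNT arrays lay above both PF68 arrays for 4 members and below them for 10, where 28.2% and 25% of all genes tested did so. With arrays scaled to the hybridization spikes, a setting in which 31.8% of all genes passed, 3 members were called higher, Krt6a, Serpinb12 and Tgm1, whose signals on day 7 were dim.

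The 4 suprabasal genes that stood out most on day 1 were dim in both groups of day 7. Krt4 differed by 0.28 ± 0.35 (limma, adjusted p = 0.681), Krt13 by -0.72 ± 0.79 (adjusted p = 0.628), Krtdap by -0.75 ± 0.84 (adjusted p = 0.638) and Mt4 by -0.31 ± 0.18 (adjusted p = 0.366). All 4 lay below the array median on all 4 arrays of day 7. The largest day 7 differences counted from the median belonged to Lor, with -1.90 ± 1.26 (adjusted p = 0.418), Fam25c, Sprr1a, with -0.62 (-0.81 ± 0.46 without the floor, adjusted p = 0.348), and Trp63, with 0.58 (0.83 ± 0.71 without it, adjusted p = 0.536). Fam25c read 0.08 and 0.33 with PF68 on day 1, 1.82 and 1.84 with SWCNT on day 1, 0.62 and 1.17 with PF68 on day 7 and 0.03 and 0.40 with SWCNT on day 7. It was the one of these 4 whose day 7 arrays did not overlap, and its difference ran from -0.95 to -0.40 without the first or the second PF68 array of day 7. Single arrays set the other 3 values. Lor gave -3.61 without the first SWCNT array of day 7 and -0.20 without the second, and Trp63 gave -0.31 and 1.96 in the same order. Sprr1a gave -1.50 without the first PF68 array of day 7, -0.12 without the second and -0.56 without the second SWCNT array. With SE of this size, smaller differences on day 7 were not detectable with 2 arrays a group.

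Between the days, keratin 10 was called higher on day 7 in both treatments. Krt10, singled out after its values were seen, read -0.14 and 0.21 with PF68 on day 1, 0.09 and 0.28 with SWCNT on day 1, 1.10 and 1.20 with PF68 on day 7 and 1.12 and 1.17 with SWCNT on day 7. The day 7 arrays were all higher, by 1.11 ± 0.15 with PF68 and 0.96 ± 0.15 with SWCNT. In PF68 lungs 4 of 26 members were called higher on day 7 (Krt10, Sbsn, Dmkn and Mt4) and 1 lower (Tgm1), where 8.92% and 8.93% of all genes tested were called. Without either PF68 array of day 1, 0 members were called, and 3 without either SWCNT array of day 1 or the second PF68 array of day 7. Dmkn rose by 1.30 ± 0.12 and Sbsn by 0.91 ± 0.11. The calls of Mt4 and Tgm1 rest on dim signals. Mt4 lay below the array median on all 4 PF68 arrays, so its 0.76 ± 0.18 is 0 counted from that median, and the -1.42 ± 0.34 of Tgm1 is -0.19.

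In SWCNT lungs 9 members were lower on day 7 than on day 1 and 1, Krt10, was higher, where 6.78% and 9.68% of all genes tested were called in those directions. Leaving out 1 of these 4 arrays gave 4 to 6 calls. The lower ones were Krt4, Krt13, Krtdap, Fam25c, Serpinb12, Mt4, Crct1, Lce3f and Sprr1a, with differences from -5.22 ± 0.35 for Krt4 to -1.62 ± 0.23 for Fam25c. This comparison holds the same day 1 arrays that served to list the members, so nothing further is read from it. The same holds for the change of the SWCNT minus PF68 difference from day 1 to day 7, which was called downward for 8 members, where 0.963% of all genes tested were, and for 1 to 4 members with any array left out.

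Genes of the same tissue outside the list are those left after the members were taken with day 1 results known, and few were called. Basal, suprabasal, desmosome and cornified lists of 76 further genes had 70 with a probe set and 44 tested, the rest being too dim. Of 28 cornified genes with a probe set, 15 and 13 reached the array median on the SWCNT arrays of day 1. On the other arrays 7 to 11 did. For the basal, suprabasal and desmosome lists, the counts on the SWCNT arrays of day 1 lay within those of the other arrays. On day 1, 0 of the 44 were called higher and 1 lower, where 0.934% and 1.24% of all genes were, Dsg2, a desmosomal cadherin of simple epithelia as well, by -0.79 ± 0.11. The largest rises counted from the median were those of Asprv1, a protease of the granular layer of skin, with 1.66 ± 0.36, and the calcium-binding S100a14, with 1.04 ± 0.17, neither called, and 2 of the 70 reached 1 unit, where 1.19% of all genes tested did. Aqp3, a water and glycerol channel of basal cells, gave -1.67. On day 7, 1 of the 44 was called higher and 1 lower, where 1.48% and 0.818% of all genes tested were. The higher one was Lama3, a laminin chain of the epithelial basement membrane, by 1.01 ± 0.13 (limma, adjusted p = 0.036). The lower one was Jup, plakoglobin, by -0.87 ± 0.13 (limma, adjusted p = 0.040). The simple epithelial keratins Krt7, Krt8, Krt18 and Krt19 were not called on either day, with medians of 0.49 and -0.10.

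Members lying in 5 runs of neighbouring genes were set beside those neighbours. No neighbour was called on day 1, where 0.934% of all genes tested were called higher and 1.24% lower. Since the members were listed with day 1 results known, they could stand out from their neighbours by that choice alone. Their comparison is a description. The epidermal differentiation complex on chromosome 3 runs from Lor to Rptn. There, 4 of 7 members differed by at least 1 unit counted from the median on day 1. So did 2 of 28 neighbours, Lce3a by 1.90 and Lce1i by 1.30, where 1.19% of all genes tested did. Of the 12 neighbours tested there, 0 were called. Between Krt10 and Krt14 on chromosome 11, 0 of 11 neighbours tested were called, and Krtap3-1, a hair keratin-associated gene, differed most with 1.03. Krt34, a hair keratin, gave -0.90 and Krt19, next to Krt15, gave 0.70. The keratin run from Krt6a to Krt4 on chromosome 15 held 6 neighbours, of which 3 were tested and 0 called. From Lypd3 to Cnfn on chromosome 7, 15 of 19 neighbours were tested and 0 called on day 1, as was the case for the 1 member tested there. Krtdap, Dmkn and Sbsn have no gene with a probe set between them, and all 3 were called higher on day 1.

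**Figure D4:**
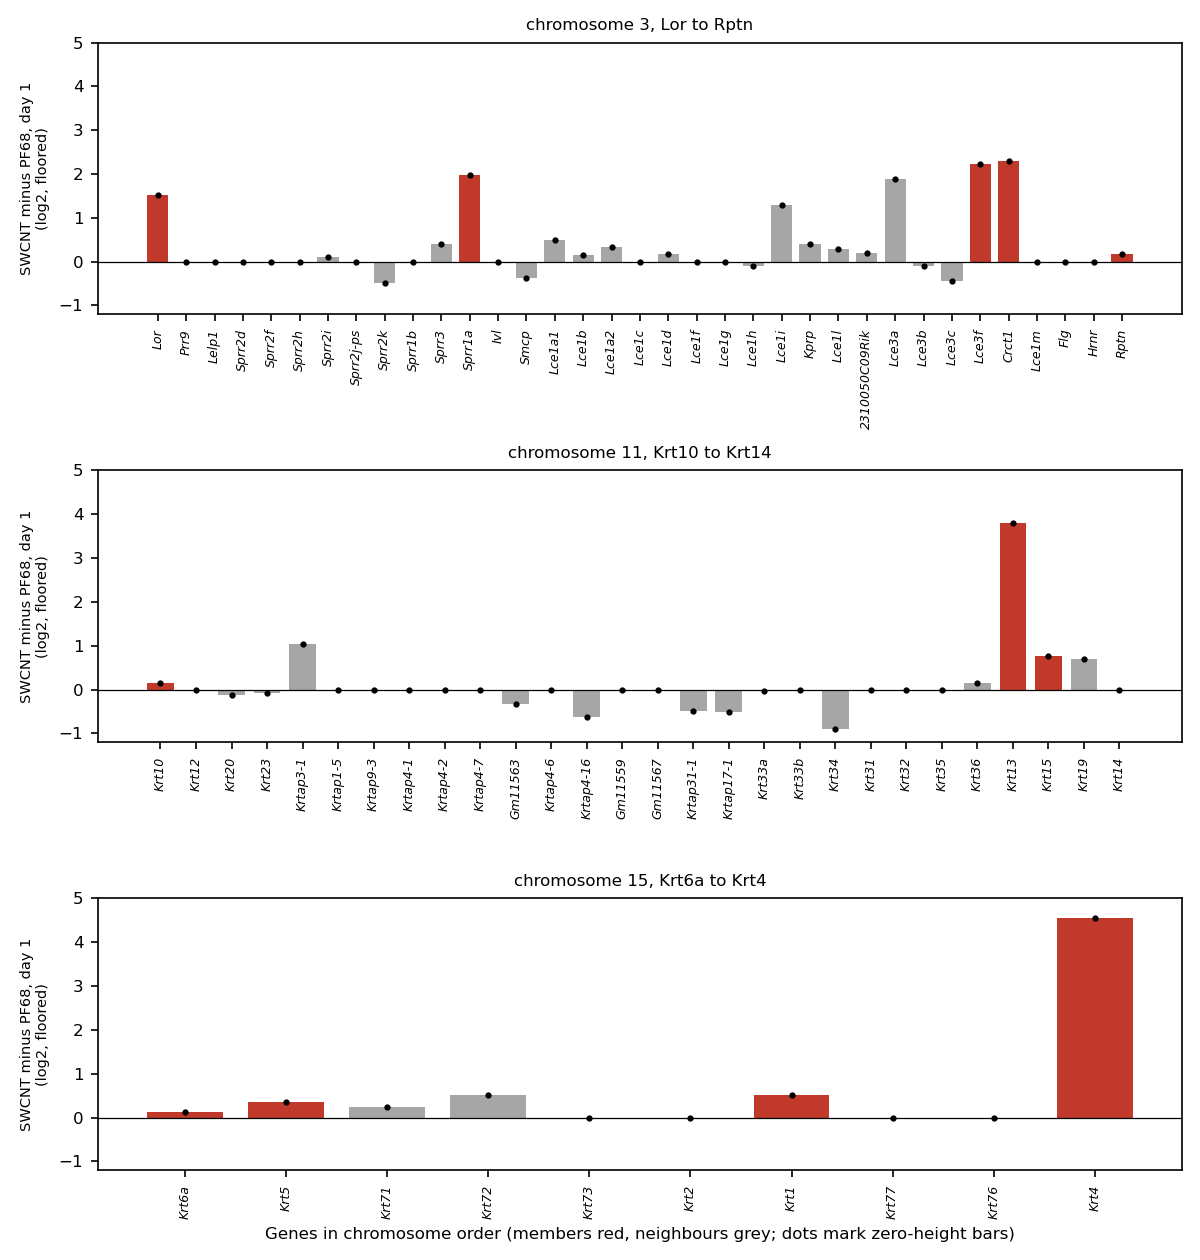
Day 1 SWCNT minus PF68 difference in log2 signal, values floored at the array median, for the genes of 3 runs in chromosome order (bars; dots mark the value where a bar has no height), members in red and neighbours in grey. Red bars reach 2.30 at Crct1, 3.80 at Krt13 and 4.56 at Krt4, and the tallest grey bar is 1.90 at Lce3a. The members were listed with day 1 results known.

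Markers of other tissues moved on the same 2 arrays. Of 14 skeletal muscle genes tested, 9 were called higher with SWCNT on day 1 and 0 on day 7, with Acta1, skeletal muscle actin, higher by 5.13 ± 0.16 on day 1. Their log2 summed signal was 3.32 and 3.09 with PF68 on day 1, 6.81 and 6.74 with SWCNT on day 1, 3.46 and 3.14 with PF68 on day 7 and 3.32 and 3.21 with SWCNT on day 7. Of the 15 muscle genes with a probe set, 14 and 14 reached the array median on the SWCNT arrays of day 1 and 4 to 6 on the others. Among those called, Myh1, Myh2, Tnnc2, Tnnt3, Mylpf and Pvalb had means below the array median in every other group. They entered the test mainly through the SWCNT arrays of day 1 and were dim on day 7. These lists too were chosen with earlier results known, so their counts are a description. Among fat genes, 2 of 4 tested were called higher on day 1 (Car3 by 3.41 and Adipoq by 2.90), and Car3 was called lower on day 7, by -2.30 ± 0.11. The summed signal of the fat genes was 5.95 and 5.85 with SWCNT on day 1. It was also raised with PF68 on day 7, at 4.52 and 4.63, against 2.77 to 3.09 on the other 4 arrays. The airway secretory genes Bpifa1 and Muc5b were called higher on day 1 by 1.90 ± 0.13 and 1.14 ± 0.12 and Cyp2f2 lower, by -0.59 ± 0.10, among 7 tested, and Bpifa1 was called lower on day 7, by -1.38 ± 0.13. Thymus, cartilage, thyroid, hair follicle and ciliated cell lists had 3, 4, 4, 5 and 8 genes tested, and 0 were called on either day. Of all genes tested, 0.934% were called higher and 1.24% lower on day 1, and 2.29% were called on day 7. Lists this short therefore say little about those tissues. The summed signal of the suprabasal members was 5.91 and 6.01 with SWCNT on day 1 and 3.87 to 4.82 elsewhere. The part of these tissues in the squamous values was not tested.

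**Figure D5:**
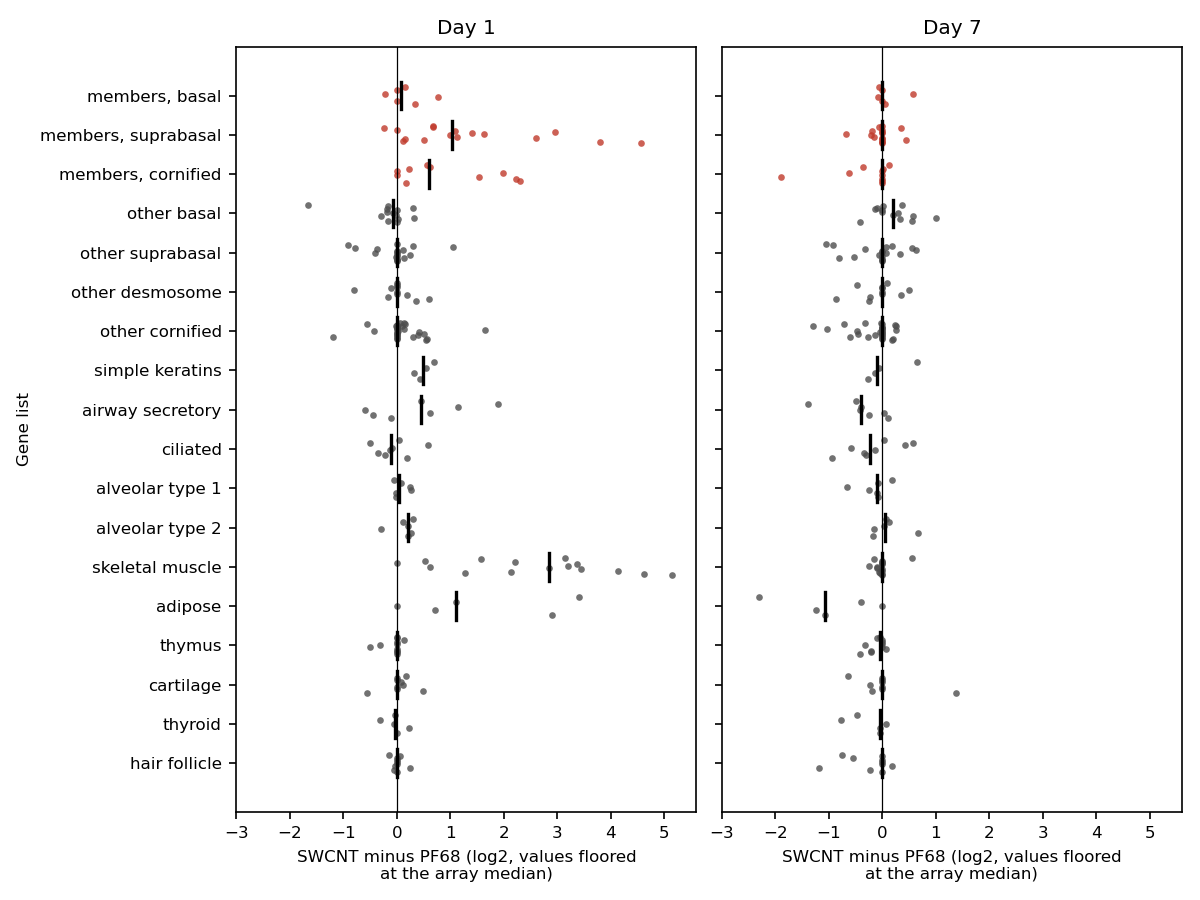
SWCNT minus PF68 difference in log2 signal, values floored at the array median, for the genes (points) of each list with the list's median (bar), on day 1 (left) and day 7 (right); members are red and other lists grey. On day 1 the suprabasal members, skeletal muscle (median 2.84) and adipose genes extend to the right, and on day 7 no member exceeds 1.

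RNA measures differed between the groups too. The 3′ minus 5′ signal of actin, which grows as RNA is shorter, was 2.04 and 2.01 with PF68 on day 1, 1.31 and 1.36 with SWCNT on day 1, 3.29 and 3.25 with PF68 on day 7 and 2.99 and 2.94 with SWCNT on day 7. Its part in the member differences was not tested. Alveolar type 2, alveolar type 1 and secretory cell markers reached the array median on all 8 arrays. Correlations over all probe sets ran from 0.914 to 0.940 within the 4 groups and from 0.891 to 0.931 between them.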

How the data were processed

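Per the labels' protocols, total RNA was extracted with Trizol and labelled with biotin. The values the authors deposited were taken to be log2 signals from RMA, a method listed without version in the submitters' processing notes; neither base nor offset is stated in the sources used here. Every array has the same median, so the values show relative, not absolute, amounts. Of 45101 probe sets, 64 controls and 8 with a missing value were left out. In the platform annotation, 34958 carried 1 gene symbol, 932 carried several, and 9160 had no entry.

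The brightest probe set by mean signal stood for a gene, which was tested if that set reached the array median on at least 2 arrays. In R 4.3.3, limma 3.58.1 fitted all 4 groups over 8 arrays (residual degrees of freedom 4, prior 1.81), with Benjamini-Hochberg adjustment over 13815 genes and a threshold of 0.05. Errors are SE from the moderated variance. The number of arrays, 2 a group, limits the precision. The procedure was tested on simulated data.

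The members and lists were chosen with earlier results of these data known. The values of every array are given for the 4 members of each layer with the largest day 1 difference counted from the array median, and for the 4 largest of day 7, with exceptions named in the text. From each other list up to 4 genes with the largest differences may be named. Alternatives were other filters, probe set choices, scalings, variance settings, a replicate block, fewer arrays and each array left out.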

Additional observations from a re-analysis of the deposited data

Results flagged for a closer look

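The SWCNT minus PF68 difference changed between the days for 8 of 26 members by a test of the difference itself (limma's interaction term, adjusted p at most 0.05), in each case downward from day 1 to day 7, where 0.963% of all genes tested were called downward. The day 1 arrays that served to list the members enter this term, so it repeats the day 1 pattern. The change in log2 units was -4.63 ± 0.50 (SE) for Krt4, -7.30 ± 1.18 for Krtdap, -5.02 ± 0.25 for Mt4, -2.48 ± 0.24 for Serpinb12, -2.30 ± 0.33 for Fam25c and -3.75 ± 0.48 for Crct1. For Sbsn it was -1.29 ± 0.16 and for Dmkn -1.21 ± 0.16, and on the probe sets chosen for these 2 genes the PF68 lungs of day 1 were the low group. Krt4, Krtdap, Mt4, Serpinb12 and Crct1 reached the array median on the SWCNT arrays of day 1 alone. They thus entered the test only through the group where they are high. Counted from that median their changes were -4.56, -2.60, -2.95, -1.40 and -2.30. Groups of 2 arrays were not searched for outlying arrays.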

How the results depend on the processing

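On day 7 the count of 0 members called held under all alternatives except 1. With arrays scaled to the bacterial hybridization spikes 3 were called, all higher (Krt6a by 0.88, Serpinb12 by 0.68 and Tgm1 by 1.37, the first 2 below the array median on all arrays of day 7 and Tgm1 differing by 0.011 counted from it), where 31.8% of all genes were called and the median of all genes shifted to 0.47. The median member difference of day 7, -0.21, became -0.35 with plain-suffix probe sets, 0 when floored, 0.23 under spike scaling, -0.070 with the filter applied before the choice of probe set (added after seeing the data) and -0.28 to -0.092 as arrays were left out, the last without the second SWCNT array of day 7. The day 1 median, 0.96, became 0.65 floored, 0.73 under spike scaling, 1.36 past the filter and 1.42 with the filter first. The counts rested on few arrays. Day 1 calls went from 10 to 6 with no filter, with plain-suffix probe sets, with the replicate block and with the arrays of the comparison alone, to 3 with a filter at 4 arrays, and to 2 to 8 with an array left out. Without any single array of day 1, PF68 or SWCNT, 2 to 4 remained past the threshold. The PF68 day count of 5 became 3 with no filter, when floored and with trend and robust settings, 2 with mean probe sets, 1 with plain suffixes, 8 under spike scaling, 0 with these arrays alone and 0 to 4 with an array left out, 0 without either PF68 array of day 1. The SWCNT day count of 10 became 3 with a filter at 4 arrays, 1 with these arrays alone and 4 to 10 with an array left out. The interaction count of 8 became 3 with no filter, a filter at 4 arrays or mean probe sets, 5 with plain suffixes, 1 with the replicate block and 1 to 4 with an array left out. Fewer arrays leave fewer degrees of freedom, and otherwise the cause was not tested. The share of all genes called under each setting is not given here, except with spike scaling. Under that scaling it was 39.4% for the PF68 day comparison. A change of count is therefore not read as a trait of the members. Deviations of like-numbered arrays correlated between -0.0049 and 0.0108, so no deviation shared by replicate number was seen. The labels do not say whether the numbers pair the arrays. The replicate block gave 0 calls on day 7, 4 for PF68 and 9 for SWCNT over time. Over all alternatives the day 1 difference stayed above 0 for Krt4 (3.81 to 5.14), Krt13 (3.03 to 5.48), Krtdap (2.60 to 7.86), Mt4 (2.95 to 4.88), Crct1 (2.30 to 2.93), Lce3f (2.23 to 2.89) and Sprr1a (1.98 to 2.39). It also stayed above 0 for the basal gene Krt15 (0.77 to 1.94) and for Lor (0.26 to 2.80). It changed sign for Krt5 (-0.02 to 0.78), Perp (-0.08 to 0.22) and Trp63 (-0.46 to 0.34). The members were listed with day 1 results known, and arrays of day 7 do not enter these differences. A sign that was kept is therefore a description and no further support. On day 7 the ranges were -3.61 to -0.20 for Lor, -0.95 to -0.23 for Fam25c, -1.50 to -0.12 for Sprr1a and -0.31 to 1.96 for Trp63. The array median limits what can be read of dim genes.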
